A study of Mus musculus with 6 samples.

Results

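Cholesterol synthesis genes and targets of SREBP2 were examined in hearts of mice that overexpress fatty acid synthase (FASN). The 8 genes, of 18193 with a probe set of their own, were Hmgcs1, Idi1, Fdft1, Sqle, Lss, Cyp51, Srebf2 and Insig1. They were represented by every probe set of the deposited table annotated to exactly 1 of these symbols, which gave 21 of 45037 probe sets once control probe sets were set aside. Of the 21, 14 probe sets for 7 genes were bright enough to be tested, and the 3 probe sets of Lss were not. The hearts came from male mice labelled C57BL/6J in 3 groups of 2 arrays. The first was a transgenic line with high cardiac FASN, the second a transgenic line with low cardiac FASN, and the third age-matched B6 controls, whose tissue field nevertheless also reads transgenic heart. Both transgenes sit behind the alpha-MHC promoter of heart muscle cells, and 1 line stands for each FASN level, so FASN dose and line of origin cannot be told apart. No label gives an age or says that a pair of arrays stems from different animals, so p-values cover only how far the arrays of a group lie apart, which may be technical spread.

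Cells make cholesterol from acetyl-CoA through the mevalonate pathway and then through squalene and lanosterol. SREBP2, a transcription factor held in the endoplasmic reticulum membrane while sterols are plentiful, is released when sterols fall and switches on the enzymes of the pathway. INSIG proteins retain its escort SCAP in the membrane, and the related factor SREBP1c drives fatty acid synthesis genes. The heart makes cholesterol and also takes it up from lipoproteins.

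The labels and the tissue were checked first. Fasn read 2268 and 2104 in high FASN hearts, 462 and 481 in low FASN hearts, and 213 and 187 in B6 controls (signal, arbitrary units). No label used here gives the transgene's species, so how far this signal comes from the endogenous gene cannot be told. All 8 heart muscle markers were tested and bright, the dimmest group mean being 8396 for Actn2 in low FASN hearts, and against control 5 were higher in high FASN hearts and 2 lower in low FASN hearts. Markers of other cell types moved with the groups. The summed signal of 6 white adipocyte markers was 18418 to 19455 in high FASN hearts, 11998 to 12319 in low FASN hearts and 1462 to 1530 in B6 controls. Car3 made up most of each sum, at means of 14934, 10039 and 1159 in the same order. Of the 5 white adipocyte markers tested, 5 were higher in high FASN hearts and 4 in low FASN hearts. Lep was dim throughout, at means of 33.3, 31.5 and 11.5. The sum of 6 fibroblast markers was 36509 to 37646 in high FASN hearts, 39377 to 40926 in low FASN hearts and 27689 to 28311 in B6 controls, with 4 and 5 of the 6 higher in high and low FASN hearts. Brown adipocyte markers (4 genes) summed to 23614 to 25114 in high FASN hearts, 19413 to 19726 in low FASN hearts and 20807 to 20899 in B6 controls. Cox8b made up most of each sum, at means of 21034, 17902 and 19713 in the same order, so these sums mainly follow Cox8b. Of the 3 brown adipocyte markers tested, Ucp1 and Cidea were higher in both lines, Ucp1 by log2 differences from control of 5.12 and 3.21. Cox8b was not called against control. For 6 airway markers the sum was 3084 to 3277, 234 to 311 and 227 to 237 in the same order, for 6 macrophage markers 9969 to 10028, 12223 to 12594 and 10610.0 to 10650.2, and for 5 B cell markers 563 to 575, 2328 to 2340.4 and 90.2 to 178. Called higher against control were 4 and 1 of the airway markers and 3 and 3 of the 3 tested B cell markers in high and low FASN hearts, while 2 macrophage markers were lower in high and 2 higher in low FASN hearts. Marker counts use the brightest tested probe set of each gene, and some others differed. Against control, 1 of 3 tested Csf1r probe sets was called higher in each line, and 1 of 4 of Ighm lower. Of 2 for the heart muscle marker Myh6, 1 was called lower in high and 1 higher in low FASN hearts. Liver markers, from a tissue rich in cholesterol synthesis, stayed dim, with 4 genes summing to 65.8 to 69.1, 86.4 to 102 and 106 to 139, and Apoa1 at means of 3.13, 2.89 and 10.2. Across probe sets, r was 0.987 to 0.990 within groups and 0.969 to 0.977 between groups. The 18 hybridization control probe sets had a median log2 difference of 0.077 in high and -0.19 in low FASN hearts against control, and of 0.27 between the lines. In whole tissue, fewer cells of a type and less RNA per cell cannot be told apart, and the part of these markers in the results below was not tested.

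Hmgcs1 stood higher than control in both transgenic lines on its 4 tested probe sets, and no other of the 8 genes passed the test in high FASN hearts. Idi1, Cyp51, Srebf2 and Insig1 also each had a probe set with both lines above both control arrays. On the brightest probe sets Srebf2 differed from control by log2 differences of 0.52 in high and 0.94 in low FASN hearts (SE 0.20). Hmgcs1 differed by less, 0.45 and 0.36, with a smaller SE (0.066). Without the intensity trend of the variance model, 1 Hmgcs1 probe set was called in high FASN hearts and none in low FASN hearts. Against controls, 4 of the 14 tested probe sets were called in high FASN hearts, all higher and all of Hmgcs1, where 14.4% of all 22519 tested probe sets were called, 8.18% higher and 6.18% lower. In low FASN hearts 5 of the 14 were called against controls, where 24.3% of all tested probe sets were. Hmgcs1 (2 probe sets), Idi1 and Srebf2 (1 each) were higher, against 13.5% of all probe sets, and 1 probe set of Fdft1 was lower, against 10.8%. Between the lines 2 of the 14 were called, 1 of Hmgcs1 and 1 of Fdft1, both higher in high FASN hearts, where 18.6% of all tested probe sets were called, 9.69% higher and 8.87% lower. A call is a Benjamini-Hochberg adjusted p below 0.05 over all tested probe sets in limma. Counted by gene, on the brightest probe set of each, 1 of 7 genes was called in high FASN hearts, 4 of 7 in low FASN hearts and 1 of 7 between the lines. Probe sets of 1 gene are not independent, and counted by gene high FASN hearts and the contrast between the lines lay close to the background share. The median log2 difference of the 14 probe sets was 0.23 in high FASN hearts, 0.23 in low FASN hearts and 0.018 between the lines, beside 0.037, 0.018 and 0.0055 over all tested probe sets. The 2 control arrays enter both line-to-control comparisons, which therefore share their error.

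**Figure D1:**
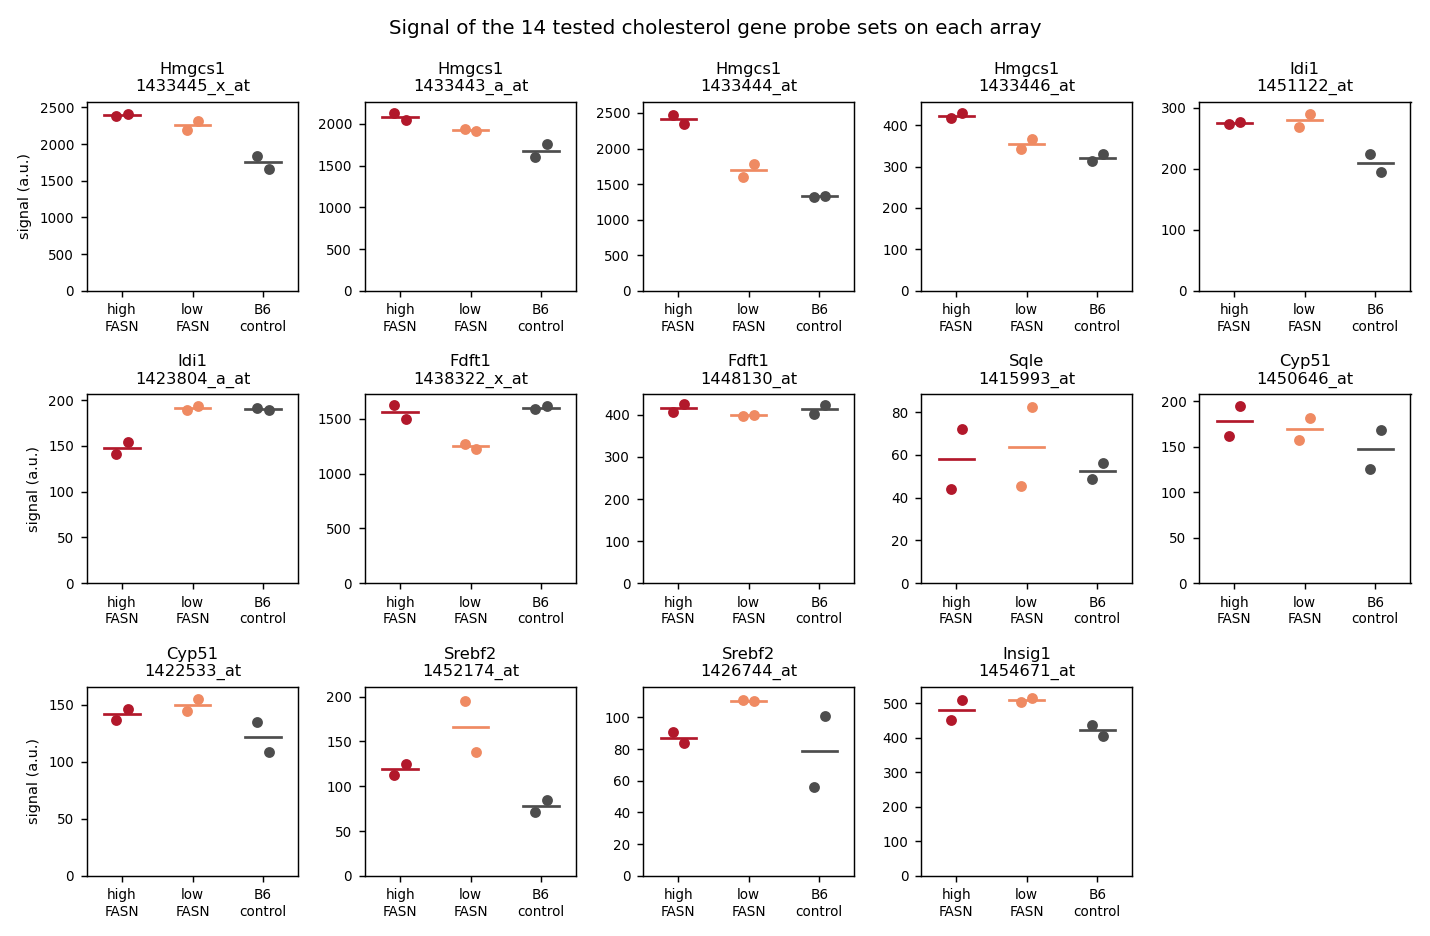
Signal in arbitrary units (linear axis from 0) of the 14 tested probe sets, with a point for each array and a line at the mean of each group of 2. All 4 Hmgcs1 panels order the groups as high FASN, low FASN and B6 control, while Sqle ranged from 43.9 to 82.2 with every group overlapping.

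Hmgcs1 encodes the cytosolic HMG-CoA synthase, which joins acetoacetyl-CoA with acetyl-CoA to make HMG-CoA. Its probe set 1433444_at read 2472 and 2349 in high FASN hearts, 1600.5 and 1787 in low FASN hearts, and 1318 and 1333 in B6 controls. The groups did not overlap, and the high line lay above the low line, which lay above controls. The high line was higher than control by 0.85 ± 0.069 on the log2(signal + 16) scale (SE), a 1.81-fold difference (limma, adjusted p = 6.98e-05). The low line was higher than control by 0.35 ± 0.069, or 1.27-fold (adjusted p = 0.00587), a call lost without low FASN sample 2 (adjusted p = 0.0671). The lines themselves differed by 0.51 ± 0.069, 1.42-fold higher in high FASN hearts (adjusted p = 0.00143), the largest difference between the lines among the Hmgcs1 probe sets. This is 1 of 4 tested probe sets of the gene, and the other 3 gave smaller differences for high FASN hearts against control. Without the intensity trend, 1433444_at kept its high-line call against control (adjusted p = 0.0175) and lost its low-line call (adjusted p = 0.0628).

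The brightest Hmgcs1 probe set, 1433445_x_at, read 2380.2 and 2417 in high FASN hearts, 2195 and 2315 in low FASN hearts, and 1841 and 1662 in B6 controls. Both lines lay above controls and differed little from each other. Its log2 difference from control was 0.45 in high FASN hearts (1.37-fold, adjusted p = 0.00210) and 0.36 in low FASN hearts (1.29-fold, adjusted p = 0.00383). Between the lines it was 0.089, with a 95% interval of -0.060 to 0.24 (adjusted p = 0.399). Neither of its calls against control held without the intensity trend (adjusted p = 0.0572 in high and 0.0545 in low FASN hearts). The suffix _x marks probe sets in which some probes also match other sequences. Probe set 1433443_a_at read 2129 and 2043 in high FASN hearts, 1943 and 1909 in low FASN hearts, and 1601 and 1756 in B6 controls. It was higher by 0.31 in high FASN hearts (adjusted p = 0.0122, and 0.0983 without B6 sample 1). In low FASN hearts it stood at 0.20, just short of the threshold (adjusted p = 0.0528). Over its 16 alternatives that adjusted p lay between 0.0353 (quantile normalization) and 0.290 (without B6 sample 1, with a log2 difference of 0.13), and 6 of them were below 0.05. Leaving out 1 array brought it below in 2 cases, to 0.0367 without high FASN sample 1 and to 0.0365 without high FASN sample 2, and not for the other 4 arrays. The dimmest tested one, 1433446_at, read 416 and 429 in high FASN hearts, 343 and 367 in low FASN hearts, and 314 and 329 in B6 controls. It was higher by 0.38 in high FASN hearts (adjusted p = 0.0373), a call that did not hold without any 1 of the 6 arrays, whether of the high line, the low line or control (adjusted p from 0.0639 to 0.160). With quantile normalization it was 0.0695, with median centring 0.0547 and with cyclic loess 0.0609. Without the intensity trend it was 0.0701, and the high-line call of 1433443_a_at was then lost too (adjusted p = 0.109). Across the 6 arrays the 4 probe sets correlated with each other at Pearson's r of 0.83 to 0.98, a description over arrays that include the group differences. A further probe set, 1441536_at, was dim and not tested, with values from 1.44 to 16.9 over all arrays.

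The 250 bases before the annotated start of Hmgcs1, Srebf2 and Idi1 are shown because these are the called genes with an entry in the RefSeq promoter table (GRCm38.p6), which held 6 of the 8 genes. Capitals mark TCACCCCA, the core of the classical sterol regulatory element bound by SREBPs, and ATTGG, the inverted CCAAT box read by NF-Y, a partner of SREBPs. Both strands were searched, and the motifs share no bases here. Hmgcs1 lies on the + strand at chr13:119690101-119690350, Srebf2 on the + strand at chr15:82147019-82147268 and Idi1 on the + strand at chr13:8885356-8885605.
Hmgcs1: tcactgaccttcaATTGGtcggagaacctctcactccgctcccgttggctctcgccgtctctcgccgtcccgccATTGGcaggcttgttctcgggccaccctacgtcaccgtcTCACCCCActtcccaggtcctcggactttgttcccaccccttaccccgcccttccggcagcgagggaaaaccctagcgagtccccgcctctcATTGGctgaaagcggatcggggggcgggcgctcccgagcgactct
Srebf2: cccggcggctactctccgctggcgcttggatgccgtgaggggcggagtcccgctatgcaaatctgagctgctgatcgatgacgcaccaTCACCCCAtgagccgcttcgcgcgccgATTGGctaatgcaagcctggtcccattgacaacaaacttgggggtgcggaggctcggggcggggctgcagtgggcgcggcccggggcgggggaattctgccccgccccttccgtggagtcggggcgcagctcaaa
Idi1: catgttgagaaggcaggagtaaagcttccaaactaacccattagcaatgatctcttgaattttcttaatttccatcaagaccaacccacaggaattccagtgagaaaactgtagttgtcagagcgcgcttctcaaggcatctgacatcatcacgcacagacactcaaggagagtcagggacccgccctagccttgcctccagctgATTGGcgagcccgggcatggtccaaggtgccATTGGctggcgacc
TCACCCCA began 137 bases before the start in Hmgcs1 and 162 bases before it in Srebf2, and these letters were not found in the windows of Idi1, Lss, Cyp51 and Insig1. Of all 32851 windows of this length in the table, 1.34% held it. ATTGG or its reverse complement CCAAT was in all 6 windows, 3 times in that of Hmgcs1 and 2 times in that of Idi1, and in 33.8% of all windows. These matches are a description of the letters.

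Idi1 encodes isopentenyl diphosphate isomerase, which makes the allylic unit for chain building, and its probe sets disagreed. On 1451122_at it read 273 and 276 in high FASN hearts, 268 and 289.9 in low FASN hearts, and 224 and 195 in B6 controls. Every transgenic array lay above both control arrays. The log2 difference from control was 0.39 ± 0.13 (SE) in low FASN hearts (1.31-fold, adjusted p = 0.0494) and 0.37 in high FASN hearts (1.29-fold, adjusted p = 0.0851). The low-line call held in 4 of the 15 alternatives run for it. Its adjusted p was 0.121 without low FASN sample 1, 0.230 without low FASN sample 2, 0.0709 without B6 sample 1 and 0.234 without B6 sample 2. It was also 0.106 with quantile normalization, 0.0665 with median centring and 0.0947 with cyclic loess. The second probe set, 1423804_a_at, read 141 and 154 in high FASN hearts, 189 and 194 in low FASN hearts, and 191 and 189 in B6 controls. Here the high line lay below both other groups, with a log2 difference from control of -0.33 (95% interval -0.65 to -0.014, adjusted p = 0.157) and from the low line of -0.34 (adjusted p = 0.127), and neither passed. Its low-line difference from control was 0.010 (95% interval -0.31 to 0.33), with a sign that turned under all 3 other scalings.

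Fdft1 encodes squalene synthase, the first enzyme committed to sterols, and it was lower in low FASN hearts on 1 of its 2 tested probe sets. On 1438322_x_at it read 1622 and 1499 in high FASN hearts, 1269.7 and 1227 in low FASN hearts, and 1593 and 1613 in B6 controls. Both low FASN samples lay below the other 4. By its suffix _x, some probes of this probe set also match other sequences, and their part in the signal was not tested. The low line was lower than control by a log2 difference of -0.36 ± 0.065 (SE), or 1.28-fold (adjusted p = 0.00392, called in all 16 alternatives). The high line was 1.25-fold higher than the low line (log2 difference 0.32, adjusted p = 0.0101, but 0.0571 without low FASN sample 1 and 0.0870 without low FASN sample 2). Against control the high line stood at -0.039 (95% interval -0.19 to 0.11, adjusted p = 0.741). The other tested probe set, 1448130_at, read 407 and 426 in high FASN hearts, 398 and 399 in low FASN hearts, and 402 and 424 in B6 controls. Its low FASN arrays were again the lowest, by a far smaller margin. The log2 difference of low FASN hearts from control was -0.048 (95% interval -0.26 to 0.17, adjusted p = 0.760), and this interval leaves out the -0.36 of the brighter probe set. The remaining Fdft1 probe sets were dim and not tested, with 8.85 to 56.5 over both and all 6 arrays.

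**Figure D2:**
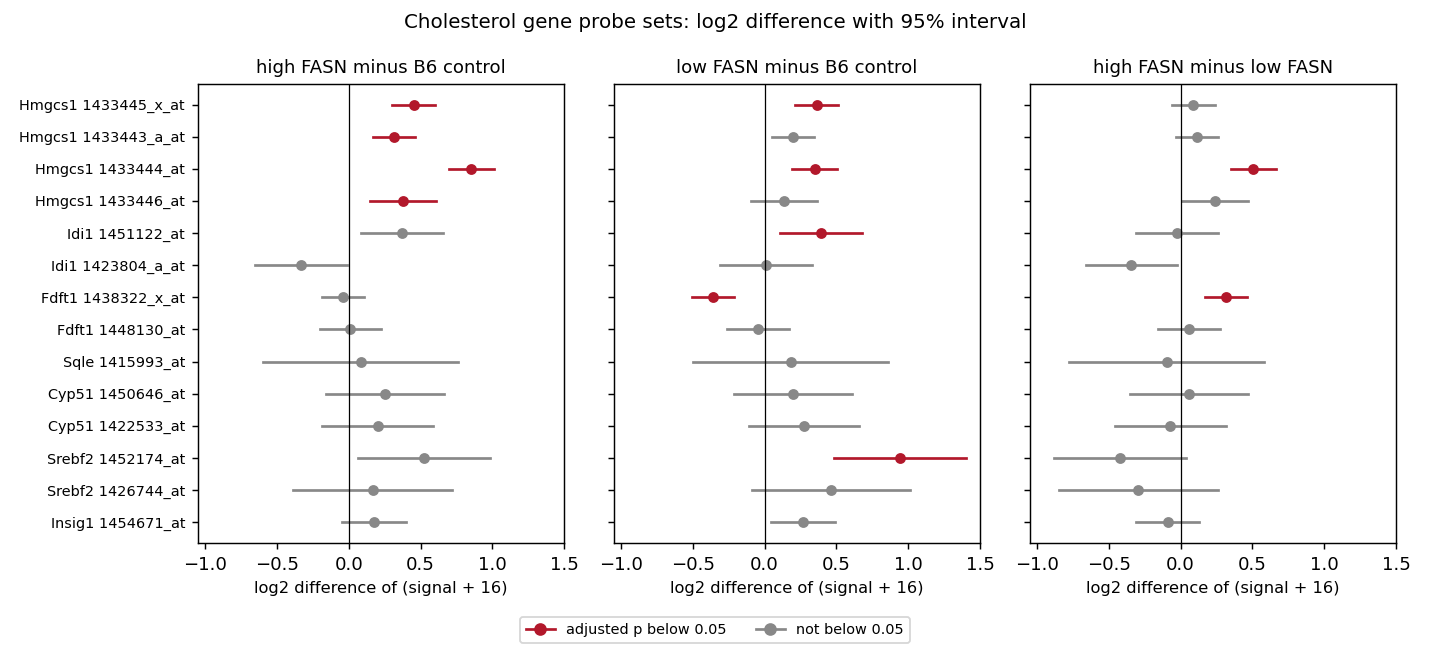
Log2 difference of signal + 16 for each tested probe set (point) with its 95% interval from limma (line), for high FASN minus B6 control, low FASN minus B6 control and high FASN minus low FASN. Called probe sets are red, and the panels show 4, 5 and 2 of them.

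Sqle, Lss and Cyp51 act on squalene and lanosterol, and no probe set of theirs was called in any of the 3 comparisons. Squalene epoxidase (Sqle) read 43.9 and 72.1 in high FASN hearts, 45.5 and 82.2 in low FASN hearts, and 48.9 and 56.4 in B6 controls. The groups overlapped, and the 95% interval of the log2 difference from control ran from -0.59 to 0.76 in high FASN hearts and from -0.50 to 0.86 in low FASN hearts. Lanosterol synthase (Lss) had 3 probe sets, none tested, with values from 4.20 to 70.9 over all arrays. Lanosterol demethylase (Cyp51) read 161 and 194 in high FASN hearts, 158 and 182 in low FASN hearts, and 126 and 169 in B6 controls on 1450646_at, where the groups overlapped (log2 differences from control 0.25 and 0.20, adjusted p = 0.402 and 0.482). Its second tested probe set, 1422533_at, read 137 and 146 in high FASN hearts, 144 and 155 in low FASN hearts, and 135 and 108 in B6 controls. On this probe set both lines lay above both control arrays, with log2 differences of 0.20 in high FASN hearts (95% interval -0.18 to 0.59, adjusted p = 0.486) and 0.27 in low FASN hearts (95% interval -0.11 to 0.66, adjusted p = 0.286). A log2 difference of 0.45, as on the brightest Hmgcs1 probe set in high FASN hearts, lies inside these intervals. The third Cyp51 probe set was dim and not tested, with 1.42 to 14.5.

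Srebf2 encodes SREBP2 itself and was higher in low FASN hearts on its brighter probe set. On 1452174_at it read 113 and 125 in high FASN hearts, 195 and 138 in low FASN hearts, and 71.7 and 84.6 in B6 controls. The low line lay above the high line, which lay above controls, without overlap. The low line was 1.92-fold higher than control (log2 difference 0.94 ± 0.20, SE, adjusted p = 0.00888), a call lost without low FASN sample 1 (0.72, adjusted p = 0.0937) and without B6 sample 1 (0.84, adjusted p = 0.0602). In high FASN hearts the difference from control was 0.52 (95% interval 0.062 to 0.98, adjusted p = 0.127), and the difference of the high line from the low line was -0.42 (95% interval -0.88 to 0.040, adjusted p = 0.191), so the lines were not shown to differ. The second probe set, 1426744_at, read 90.6 and 83.9 in high FASN hearts, 111 and 110.4 in low FASN hearts, and 56.3 and 101 in B6 controls. Both low FASN samples were again the highest, with a log2 difference from control of 0.46 (95% interval -0.091 to 1.01, adjusted p = 0.211). In high FASN hearts it was 0.17 (adjusted p = 0.706). At signals this low the added 16 makes fold changes look smaller than they are.

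Insig1, an SREBP target whose protein retains the SCAP-SREBP complex, read 451 and 509 in high FASN hearts, 505 and 516 in low FASN hearts, and 437 and 407 in B6 controls. All 4 transgenic arrays lay above both control arrays, and no comparison passed. The log2 difference from control was 0.18 (95% interval -0.043 to 0.40, adjusted p = 0.272) in high FASN hearts and 0.27 (95% interval 0.047 to 0.49, adjusted p = 0.0777) in low FASN hearts, and -0.090 (adjusted p = 0.577) for the high minus the low line.

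Position without overlap was common in these data. In high FASN hearts 8 of the 14 probe sets had both arrays above both control arrays, where 32.2% of all tested probe sets did, and 1 had both below, where 23.9% did. In low FASN hearts 9 lay above, against 34.7% of all, and 2 below, against 30.3%. For the high line over the low line 6 lay above, all of Hmgcs1 or Fdft1, against 30% of all. Another 3 lay below, all of Idi1 or Srebf2, against 29.2%. Those above control came from Cyp51, Hmgcs1, Idi1, Insig1 and Srebf2 in both lines. Every tested Hmgcs1 probe set was among those above in each comparison. Probe sets of 1 gene are not independent, so these are not counts of genes.

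The other genes of sterol metabolism were read from 5 lists of 46 genes, of which 37 were analysed here and 35 tested, with 1 probe set a gene. In high FASN hearts 2 of the 35 were higher than control and 0 lower (14.4% of all tested probe sets were called). In low FASN hearts 4 were higher and 1 lower (24.3% of all), and between the lines 3 were higher and 2 lower in high FASN hearts (18.6% of all). The median log2 difference over the 35 was 0.14 in high FASN hearts, 0.056 in low FASN hearts and 0.046 between the lines. The called shares were below the background in all 3 comparisons, although the background counts all tested probe sets and not the brightest of each gene.

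In the list of mevalonate steps 4 genes were tested, and none passed against control in either line on its brightest probe set. This list includes Ggps1, geranylgeranyl diphosphate synthase, which does not lie on the route to squalene. Of Ggps1, 1 of 4 tested probe sets was called higher in low FASN hearts. Mvk, mevalonate kinase, was higher in high than in low FASN hearts, at 152 and 133 against 86.1 and 76.1 (log2 difference 0.71, adjusted p = 0.0453). That call held in 8 of 15 alternatives. It was lost without high FASN sample 1 (adjusted p = 0.158), high FASN sample 2 (0.0661), low FASN sample 1 (0.126) or low FASN sample 2 (0.202), and 1 of 2 tested Mvk probe sets carried it. Among 7 late sterol genes 0 passed in high FASN hearts and 1 in low FASN hearts, where 1 of 3 tested probe sets of Hsd17b7, a sterol ketoreductase, was also called higher but was not its brightest. Msmo1, the sterol C4 methyl oxidase, read 296 and 282 in low FASN hearts and 218 and 156 in B6 controls (log2 difference 0.60, adjusted p = 0.0242). Without low FASN sample 1 its adjusted p was 0.131, without low FASN sample 2 it was 0.0965 and without B6 sample 2 it was 0.155.

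Of 10 tested genes for SREBP control and sterol uptake, 2 were higher and 0 lower in high FASN hearts by their brightest probe set, while 1 of 3 tested probe sets of Insig2, a relative of Insig1, was called lower. Srebf1, the gene of SREBP1, read 1028 and 1026 in high FASN hearts, 699 and 679.8 in low FASN hearts, and 586 and 675 in B6 controls. It stood apart in high FASN hearts, by a log2 difference of 0.69 from control (adjusted p = 0.000866) and of 0.56 from the low line (adjusted p = 0.00240), both called in all 16 alternatives, and at 0.13 in low FASN hearts it was not called (adjusted p = 0.317). Npc2, which hands cholesterol out of lysosomes, read 2401 and 2699 in high FASN hearts and 1975 and 1733 in B6 controls (log2 difference 0.46, adjusted p = 0.00545, and 0.0539 without B6 sample 2), with 2 of its 3 tested probe sets called. A probe set of Npc2 other than the brightest was also called higher in low FASN hearts against control, and 1 in high against low FASN hearts. In low FASN hearts 2 were higher and 0 lower. Mbtps1, the site 1 protease that cuts SREBPs, was higher by 0.31 (adjusted p = 0.0170) on 1 of 2 tested probe sets. Its adjusted p was 0.117 without low FASN sample 1, 0.0665 without low FASN sample 2 and 0.119 without B6 sample 1. Stard4, a sterol carrier induced by SREBP2, read 131 and 200.1 in high FASN hearts, 300.3 and 273 in low FASN hearts, and 173 and 187 in B6 controls. It was higher in low FASN hearts by 0.62 (adjusted p = 0.0365) and lower in high than in low FASN hearts, by a log2 difference of -0.76 (adjusted p = 0.0204). The low-line call held in 7 of 15 alternatives, with an adjusted p of 0.184 without low FASN sample 1, 0.110 without low FASN sample 2, 0.154 without B6 sample 1 and 0.102 without B6 sample 2. Between the lines it was 0.0765 without high FASN sample 1, 0.132 without low FASN sample 1 and 0.0852 without low FASN sample 2. A different Stard4 probe set of the 3 tested was called higher in high FASN hearts against control.

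No gene of sterol efflux, storage or LXR signalling passed in any comparison, out of 8 tested. In the list for the branch that makes other isoprenoids, which leaves out Ggps1, 6 genes were tested and 0 passed in high FASN hearts. Of Fnta, a subunit of the prenyl transferases, 1 of 2 tested probe sets was called higher in low FASN hearts without being its brightest. Coq2, which attaches the side chain of coenzyme Q, read 1579 and 1602 in high FASN hearts, 2257 and 2393 in low FASN hearts, and 1772 and 1752 in B6 controls. It was higher in low FASN hearts than control by 0.40 (adjusted p = 0.00132) and lower in high than in low FASN hearts, with a log2 difference of -0.54 (adjusted p = 0.000479), both called in all 16 alternatives. Pdss2, a subunit of the enzyme that builds this side chain, was lower in low FASN hearts, with a log2 difference of -0.28 (adjusted p = 0.0498). It held in 7 of 16 alternatives, and its adjusted p was 0.255 without low FASN sample 1, 0.0970 without low FASN sample 2, 0.236 without B6 sample 1 and 0.0923 without B6 sample 2. Pggt1b, a subunit of the enzyme that adds geranylgeranyl groups to proteins, was higher in high than in low FASN hearts by 0.39 (adjusted p = 0.0174) on 1 of 4 tested probe sets, while a different one was called higher in low FASN hearts against control. Its adjusted p was 0.0531 without high FASN sample 2, 0.0754 without low FASN sample 1 and 0.115 without low FASN sample 2.

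**Figure D3:**
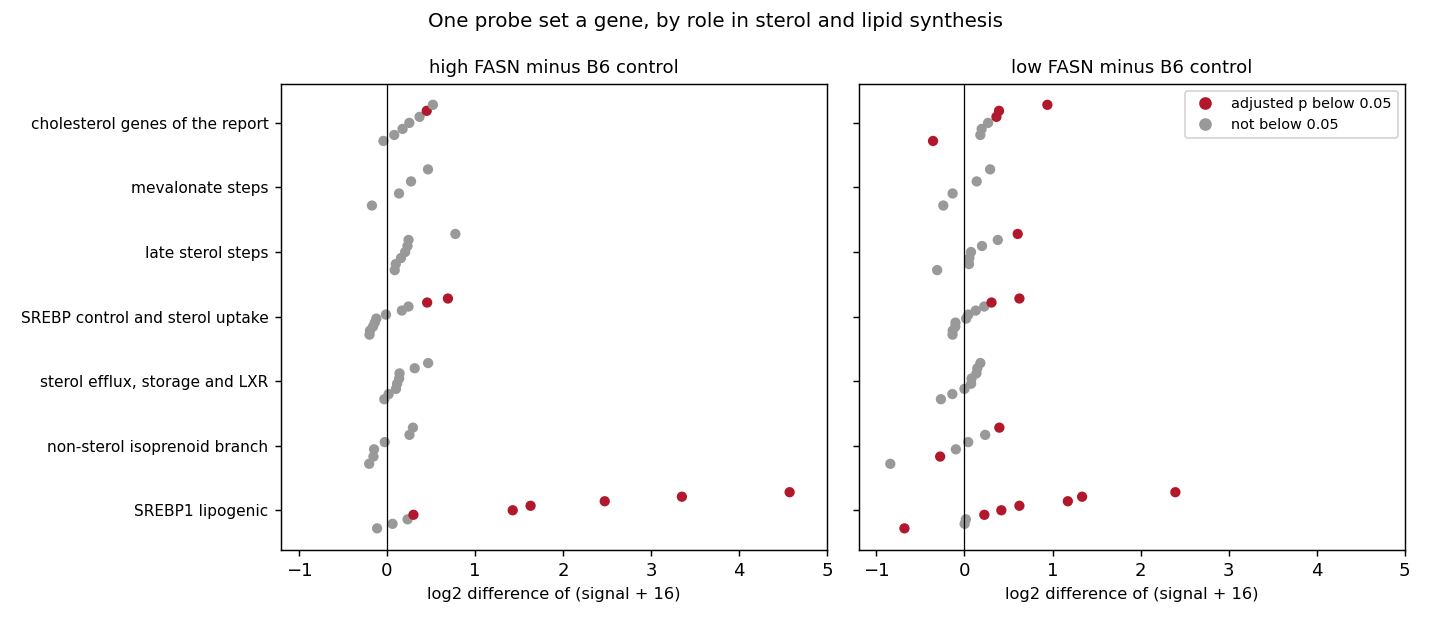
Log2 difference of signal + 16 from B6 control for 1 probe set a gene, in the high FASN line (left) and the low FASN line (right), with 1 point a gene and called genes in red. The 7 tested cholesterol genes and the 5 sterol lists lie between -1 and 1, whereas lipogenic genes such as Scd1 reach 4.57 in high FASN hearts and 2.40 in low FASN hearts.

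The lipogenic genes that SREBP1 drives had larger median differences as a list. Of 9 tested, 6 were higher in high FASN hearts and 0 lower, with a median log2 difference of 1.43, and in low FASN hearts 6 were higher and 1 lower, with a median of 0.42. Between the lines 6 were higher in high FASN hearts, with a median of 1.01. The list holds Fasn, the gene overexpressed in both lines. Acly, which makes the cytosolic acetyl-CoA that both pathways use, read 2704 and 2802 in high FASN hearts, 1357 and 1361 in low FASN hearts, and 1008 and 1017 in B6 controls. It was higher than control by 1.43 in high FASN hearts (adjusted p = 7.43e-07) and by 0.42 in low FASN hearts (adjusted p = 0.000985). Whether lipogenic and sterol genes differ in their response was not tested.

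The 7 leading probe sets were averaged after each was centred on its own mean over the 6 arrays. The profile stood at 0.0050 and 0.15 in high FASN hearts, 0.061 and 0.14 in low FASN hearts, and -0.20 and -0.16 in B6 controls (log2). Control arrays were lowest, and the lines overlapped. Among 5475 other tested probe sets with 1 symbol and a spread of at least 0.5 between group means, the 5 most like it over the 6 arrays were those of Enpp3, Ncam1, Nckap5, Zc4h2 and Map9, with Pearson's r of 0.991, 0.990, 0.983, 0.982 and 0.982. Enpp3 read 94.3 and 123 in high FASN hearts, 112 and 118 in low FASN hearts, and 61.7 and 65.7 in B6 controls. Within the 7 leading probe sets those of Hmgcs1 and Idi1 followed each other most closely, at r of 0.97. That of Fdft1 ran against the other 6, with r from -0.80 to -0.32. These correlations describe 6 arrays that share 3 groups and carry no test. They leave out the second probe sets of Idi1 and Fdft1, which differed from the leading ones. Idi1 on 1423804_a_at stood at -0.33 from control in high FASN hearts. Fdft1 on 1448130_at stood at 0.012 in high and -0.048 in low FASN hearts.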

How the data were processed

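RNA from 6 mouse heart samples was hybridized as biotin-labelled cRNA to Affymetrix expression arrays. The deposited table holds linear intensity values made with GCOS, per the submitters' processing notes, and no source used here gives its version, summary method or target. Detection calls were not used. Trimmed means of the columns (2% at each end) were 300.002 on all arrays, so the deposited scaling was kept, and dimness was judged from the values themselves. Probe sets were named from the annotation table supplied with the data (34945 of 45037 with 1 symbol, 932 with several and 9160 not listed), and updating through Entrez identifiers altered 0 symbols.

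After addition of a pseudocount of 16 to the signal and a log2 transformation, limma 3.58.1 was run in R 4.3.3 (lmFit, eBayes with an intensity trend, 3 group means, 3 residual and 6.43 prior degrees of freedom, two-sided, Benjamini-Hochberg over 22519 probe sets). This scale understates changes of dim genes. Tested probe sets had a mean log2 value over the 6 arrays at or above the median. The model was run on simulated data with planted differences and normal noise of its own fitted spread. Such a run checks the code and cannot show how the real arrays vary. Precision rests on how many arrays there are. Named genes are all probe sets of the 8 genes, the called genes of 5 sterol lists (up to 3 per list, direction and comparison), and the 5 most like the mean profile. The genes, lists and promoter letters were chosen with earlier results of these data known. Alternatives were other scalings, pseudocounts (1 and 64), filters, variance models, the 4 arrays compared alone, the replicate number as a block, and each array left out. Figures used matplotlib 3.10.9 under Python 3.11.15.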

Additional observations from a re-analysis of the deposited data

Results flagged for a closer look

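The log2 differences listed here are those for which the high and the low line differed from control by unequal amounts by the high minus low contrast in limma (adjusted p below 0.05). For Hmgcs1 on 1433444_at the difference between the lines was 0.51, and for Fdft1 on 1438322_x_at it was 0.32. Among the other sterol genes it was 0.71 for Mvk, 0.56 for Srebf1, -0.76 for Stard4, -0.54 for Coq2 and 0.39 for Pggt1b. With 2 arrays a group no single array could be tested for standing apart.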

How the results depend on the processing

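Counts of calls moved with the variance model, the arrays used and the filter. Without an intensity trend 1233 probe sets were called in high FASN hearts, 3576 in low FASN hearts and 1449 between the lines, against 3234, 5475 and 4179. The counts for the cholesterol genes were then 1, 2 and 1, and for the other sterol genes 1, 1 and 2. The 2 cholesterol probe sets still called in low FASN hearts did not include Hmgcs1. With each array left out in turn, the calls over all probe sets ranged from 1398 to 3493 in high FASN hearts, from 2897 to 6476 in low FASN hearts and from 1553 to 4158 between the lines. Those of the cholesterol genes ranged from 2 to 3, from 3 to 6 and from 1 to 2, and those of the other sterol genes from 2 to 3, from 2 to 7 and from 2 to 6. With the brightest probe set of each gene only, 1 cholesterol gene was called in high FASN hearts and 1 between the lines, since fewer probe sets are counted. The stricter filter gave 4 other sterol genes in high FASN hearts, and no filter gave 2 in low FASN hearts and 3 between the lines. The cause of the other shifts was not tested.

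Signs turned for some values that were not called. Fdft1 on 1448130_at in high FASN hearts became -0.045 with quantile normalization, -0.017 with median centring and -0.030 with cyclic loess, and ranged from -0.024 to 0.048 with arrays left out. Idi1 on 1423804_a_at in low FASN hearts became -0.064, -0.0050 and -0.060 in the same order, with a range of -0.0079 to 0.028. With arrays left out, the value in high FASN hearts ranged from -0.096 to 0.017 for Fdft1 on 1438322_x_at, from -0.20 to 0.36 for Sqle and from -0.18 to 0.51 for Srebf2 on 1426744_at. In low FASN hearts Sqle ranged from -0.16 to 0.52. Between the lines the range was -0.074 to 0.031 for Idi1 on 1451122_at, -0.43 to 0.24 for Sqle and -0.064 to 0.18 for Cyp51 on 1450646_at.

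Deviations of samples with the same replicate number correlated at only 0.00040 to 0.040, so the numbers were not taken as pairs. With the replicate block 3392 probe sets were called in high FASN hearts, 5647 in low FASN hearts and 4325 between the lines. Of the cholesterol probe sets 4, 4 and 2 were then called, Idi1 in low FASN hearts being lost (adjusted p = 0.0599). Among the other sterol genes the block ended the calls of Pdss2 in low FASN hearts (0.0501) and of Mvk between the lines (0.0537). Between the lines 5 other sterol genes were called with the block, 2 higher and 3 lower in high FASN hearts, against 3 higher and 2 lower without it. A lower gene was thus called only with the block.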
